A study of Homo sapiens with 6 samples.

Results

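The genes described here were 38 proteases, protease inhibitors and partners that act on the extracellular matrix or at the cell surface. They were chosen by symbol: 7 ADAM, 7 ADAMTS and 12 MMP genes, BMP1, the 4 TIMP genes, RECK, BSG, and PLAU, PLAT, PLAUR, SERPINE2 and SERPINB2 of the plasminogen activator system. All 38 were found among the 24462 gene symbols of the count files, 30 of them had more than 3 counts in at least 1 library, and 28 had enough counts to be tested with 12650 genes in all.

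RNA came from MDA-MB 231, a human triple-negative breast cancer cell line, collected 48 h after transfection, and was read as QuantSeq libraries, in which a transcript is counted from reads near its 3′ end. The 3 groups had 2 libraries each. The first group received a negative control (NC) mimic, the second a miR-200a mimic, and the third the miR-200a mimic together with a plasmid that expresses wild-type ELK3, named pcDNA3.1 Hygro(+)-ELK3 in the treatment label and pcDNA3.1-Flag-ELK3 in the protocol. Libraries of this group, labelled miR-200a plus ELK3, are called those with the co-transfection label. The protocol gives 100 nM of miR-200a and 30 ng of plasmid. Whether the NC mimic and miR-200a groups received an empty plasmid is not given in the sources used here, so the plasmid vector and ELK3 cannot be told apart as differences between the groups. All groups were transient transfections of 1 cell line. Nothing in the labels says that the libraries of a group came from separate cultures, so the p-values measure the spread between these libraries, which may be technical.

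Library totals ran from 3055915 to 4868004 counts, and 3 counts, taken as the smallest detectable value, corresponded to 0.61 to 0.976 CPM (counts relative to the library total, scaled between libraries by TMM). ELK3, the gene on the plasmid, had a CPM of 137 and 166 after the NC mimic, 102 and 103 after miR-200a and 95.9 and 79 under the co-transfection label, so it was not higher in the group that received the plasmid (log2 fold change against miR-200a -0.23, standard error (SE) 0.15, adjusted p = 0.354). The libraries read the 3′ end of a transcript. The paper describes its plasmid as the ELK3 coding region in pcDNA3.1, lacking an intact ELK3 3′UTR, so these counts may not include the plasmid's transcript. By qRT-PCR and Western blot, the paper reports ELK3 mRNA and protein restored to the control level in co-transfected cells. The mesenchymal markers VIM (4068 to 11179 counts), CD44 and ZEB1 were present, ESR1 was at 0 and PGR at 0 to 1 count. ERBB2, the gene of HER2, was detected at 99 to 232 counts, or 23.2 to 47.2 CPM. The epithelial genes EPCAM (39 to 140 counts) and CDH1 (0 to 12 counts) were low but moved with miR-200a. EPCAM was at 8.66 and 13 CPM after the NC mimic and 29 and 28.5 after miR-200a, and CDH1 at 1 and 0 and at 11 and 12 counts. Of 13 marker genes 7 were tested, and 0 passed in the model of all 6 libraries (0.269% of all genes did). In a model of these 2 groups alone, where 7.9% of all genes passed, 3 of the markers passed. These were EPCAM and CDH1 as higher and ZEB1 as lower (adjusted p of 2.22e-05, 0.0189 and 0.00618). Their part in the changes with miR-200a given below was not tested. DCN and LUM of fibroblasts were at 0 in every library, PTPRC of leukocytes had at most 10 counts, and CD68 had 57 to 144. The libraries with the co-transfection label stood further apart from each other than those of the other groups: the median absolute log2 difference between the replicates over the 28 tested genes was 0.36, against 0.16 in the NC mimic group and 0.13 in the miR-200a group. Over all tested genes it was 0.31, 0.18 and 0.14.

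Cells remodel their matrix with secreted and membrane-bound enzymes that are held in check by dedicated inhibitors. MMPs cleave collagens and other matrix proteins, ADAMs release the outer domains of membrane proteins, and ADAMTS enzymes cut proteoglycans and procollagens; TIMPs block most of these metalloproteases. Urokinase (PLAU), bound to its receptor PLAUR, and tissue plasminogen activator (PLAT) convert plasminogen to plasmin, which degrades fibrin and activates several pro-MMPs, and serpins inactivate both activators. miR-200a binds messenger RNAs through its seed and is known for its low level in mesenchymal breast cancer cells.

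The sequences that tie the genes to the transfected RNA are the seed of miR-200a and its matches. The mature miR-200a of RefSeq (build GRCh38.p14, chr1:1167916-1167937, plus strand) is shown with bases 2 to 8, the seed, in capitals.
hsa-miR-200a-3p: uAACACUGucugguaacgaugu
The 7 bases that pair with this seed are CAGTGTT. In the GENCODE 3′UTRs of build GRCh38 they occurred in 2 of the 37 protease and inhibitor genes that have an annotated 3′UTR (5.41%), or in 2 of the 27 tested ones (7.41%), whereas 2202 of 11170 tested genes had a match (19.7%). The median 3′UTR length was 932 bases for the tested proteases and inhibitors and 1121 bases for the tested genes. The matches lay in ADAM10, a sheddase of Notch receptors, and in MMP24, a membrane-type MMP, each with 2 in the last exon. They are given in the sense of the transcript with the match in capitals, next to the single match in ELK3.
ADAM10 first match (chr15:58595329-58595335, minus strand, exon 16): tcccacaaggCAGTGTTttctt
ADAM10 second match (chr15:58594972-58594978, minus strand, exon 16): attgacatttCAGTGTTaccta
MMP24 first match (chr20:35275763-35275769, plus strand, exon 9): cggctggaagCAGTGTTttccc
MMP24 second match (chr20:35276347-35276353, plus strand, exon 9): taggtttgtaCAGTGTTttata
ELK3 match (chr12:96269668-96269674, plus strand, exon 5): tctgcttaatCAGTGTTaaact
The second ADAM10 match and the ELK3 match are followed by an A, which makes them 8-base matches. With miR-200a, ADAM10 had a log2 fold change of 0.00 (SE 0.24, adjusted p = 0.998) and MMP24 of 0.03 (SE 0.16, adjusted p = 0.978) against the NC mimic, so neither differed by more than the spread between replicates. ELK3 had a log2 fold change of -0.56 (SE 0.15, adjusted p = 0.232), and it passed in a model of these groups alone (adjusted p = 0.000233) but not with the replicate number as a block (0.395). Matches are a description of the letters and do not show binding.

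The 10 genes with too few counts to be tested included the collagenases MMP1 and MMP13 and the gelatinase MMP2. ADAMTS5, ADAMTS10, MMP7 and MMP13 were at 0 in all 6 libraries. MMP2 had at most 2 counts in a library, MMP17 at most 3, ADAMTS7 at most 1 and ADAMTS13 at most 2. MMP10 had 6 counts in 1 miR-200a library and at most 1 in the other 5. MMP1, the interstitial collagenase, had 6 and 12 counts after the NC mimic, 4 and 5 after miR-200a, and 5 and 1 under the co-transfection label. A fall or rise in these genes was not detectable at this depth. The filter needed 2 libraries above its cutoff. MMP9 reached it in 2 libraries only, both of the NC mimic group, where its level was highest. MMP3, TIMP4 and SERPINB2 reached it in 4 libraries and ADAM12 and RECK in 5.

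**Figure D1:**
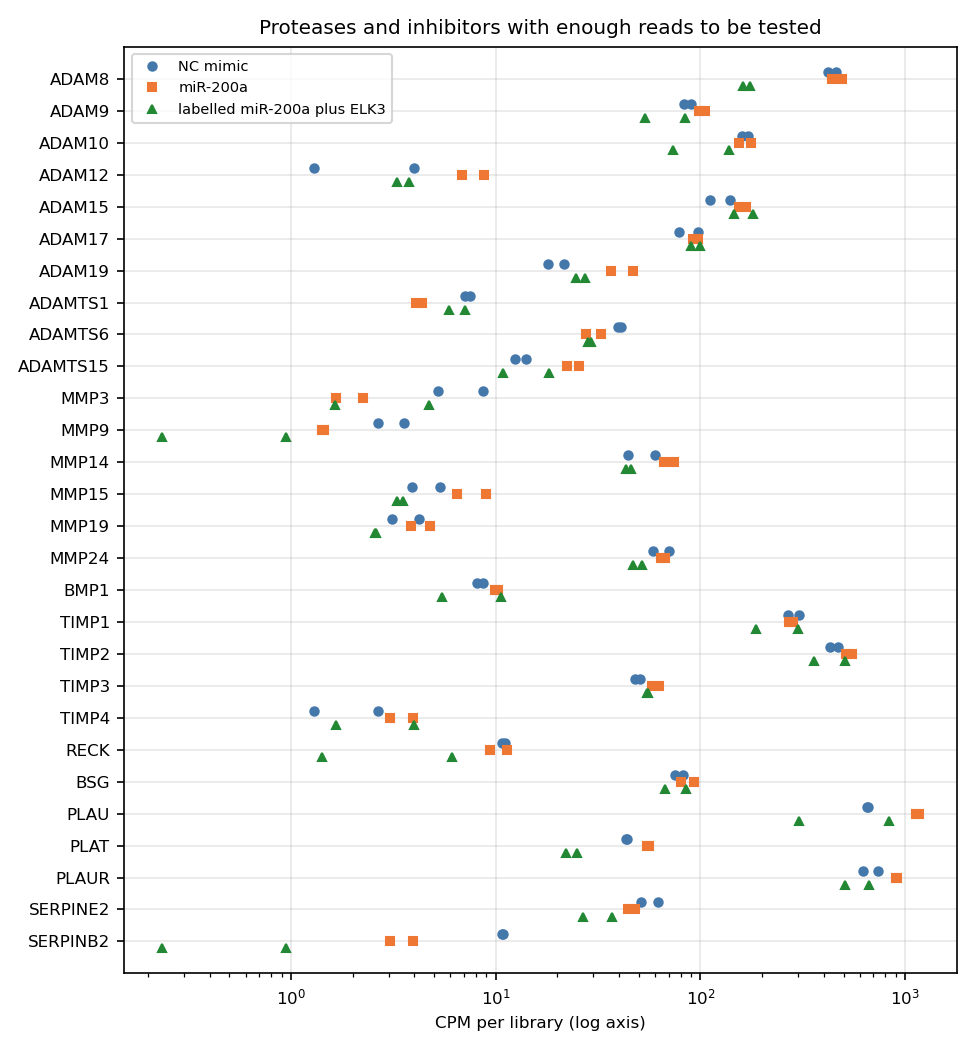
CPM of the 28 tested protease and inhibitor genes in each of the 6 libraries on a log axis, with 1 point per library and colours and shapes for the 3 groups. ADAM8, PLAT, SERPINE2 and SERPINB2 were lower in both libraries with the co-transfection label than in any other library. The same held for ADAM10, RECK, MMP9, MMP15, MMP19 and MMP24, which did not pass in the model of all 6 libraries. The 2 libraries of that group lay far apart for PLAU and RECK.

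The first comparison, miR-200a against the NC mimic, asks what the miRNA did to these genes. In the model of all 6 libraries, 0 of the 28 genes passed an adjusted p of 0.05 by edgeR's quasi-likelihood test, where 0.269% of all 12650 genes passed. DESeq2 called 1 of them, ADAM19 (0.696% of all genes passed), and limma called 0 (0.0316% of all genes passed). At an unadjusted p under 0.05 there were 10, 6 higher and 4 lower, against 9.24% of all genes in either direction. The unadjusted share by direction was not counted over all genes. In a model of these 2 groups alone, without the widely spread libraries with the co-transfection label, 10 of the 28 passed (7.9% of all genes did). Of these, 8 were higher with miR-200a, where 4.77% of all genes passed as higher: PLAU, PLAUR, ADAM19, ADAM12, ADAMTS15, ADAM15, MMP14 and TIMP2. The 2 that were lower, where 3.12% of all genes passed, were SERPINB2 and MMP3. The count thus depends on which libraries set the spread. The median log2 fold change of the 28 genes was 0.234 against -0.019 for all genes, and 20 of the 28 had a positive value (47.2% of all genes did).

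The second comparison, the libraries with the co-transfection label against miR-200a, asks what the ELK3 plasmid changed on top of the miRNA. It uses the same miR-200a libraries as the first comparison, with the opposite sign. A high value in those libraries alone gives a rise in the first and a fall in the second, so the comparisons are not independent. In the model of all 6 libraries 5 of the 28 genes fell (5.91% of all genes fell) and 0 rose (7.03% of all genes rose). The 5 were the sheddase ADAM8, the activator PLAT, the receptor PLAUR, the inhibitor SERPINB2 and the membrane-type protease MMP14. At an unadjusted p under 0.05, by DESeq2 and by limma, 0 were higher. These settings called 30.6%, 9.59% and 0.846% of all genes in either direction. Their shares of all genes called higher were not counted. In a model of these 2 groups alone, 2 fell, ADAM8 and PLAT (2.27% of all genes fell). The median log2 fold change was -0.599 against 0.016 for all genes, and 24 of the 28 genes had a negative value (51.2% of all genes had a positive one).

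The third comparison, the libraries with the co-transfection label against the NC mimic, shares libraries with both others and is no separate evidence. Here 4 of the 28 genes fell (5.95% of all genes fell): ADAM8, SERPINB2, PLAT and SERPINE2. None of the 28 rose by edgeR (6.92% of all genes rose), DESeq2 or limma, and 1, ADAM15, was higher at an unadjusted p under 0.05. In either direction DESeq2 called 9.99% of all genes, limma 3.09% and the unadjusted p 30.6%. In a model of these 2 groups alone, 3 fell, ADAM8, SERPINB2 and PLAT (2.38% of all genes fell). The median log2 fold change was -0.235 against 0.011 for all genes, with 21 of 28 values negative (50.9% of all genes had a positive one).

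**Figure D2:**
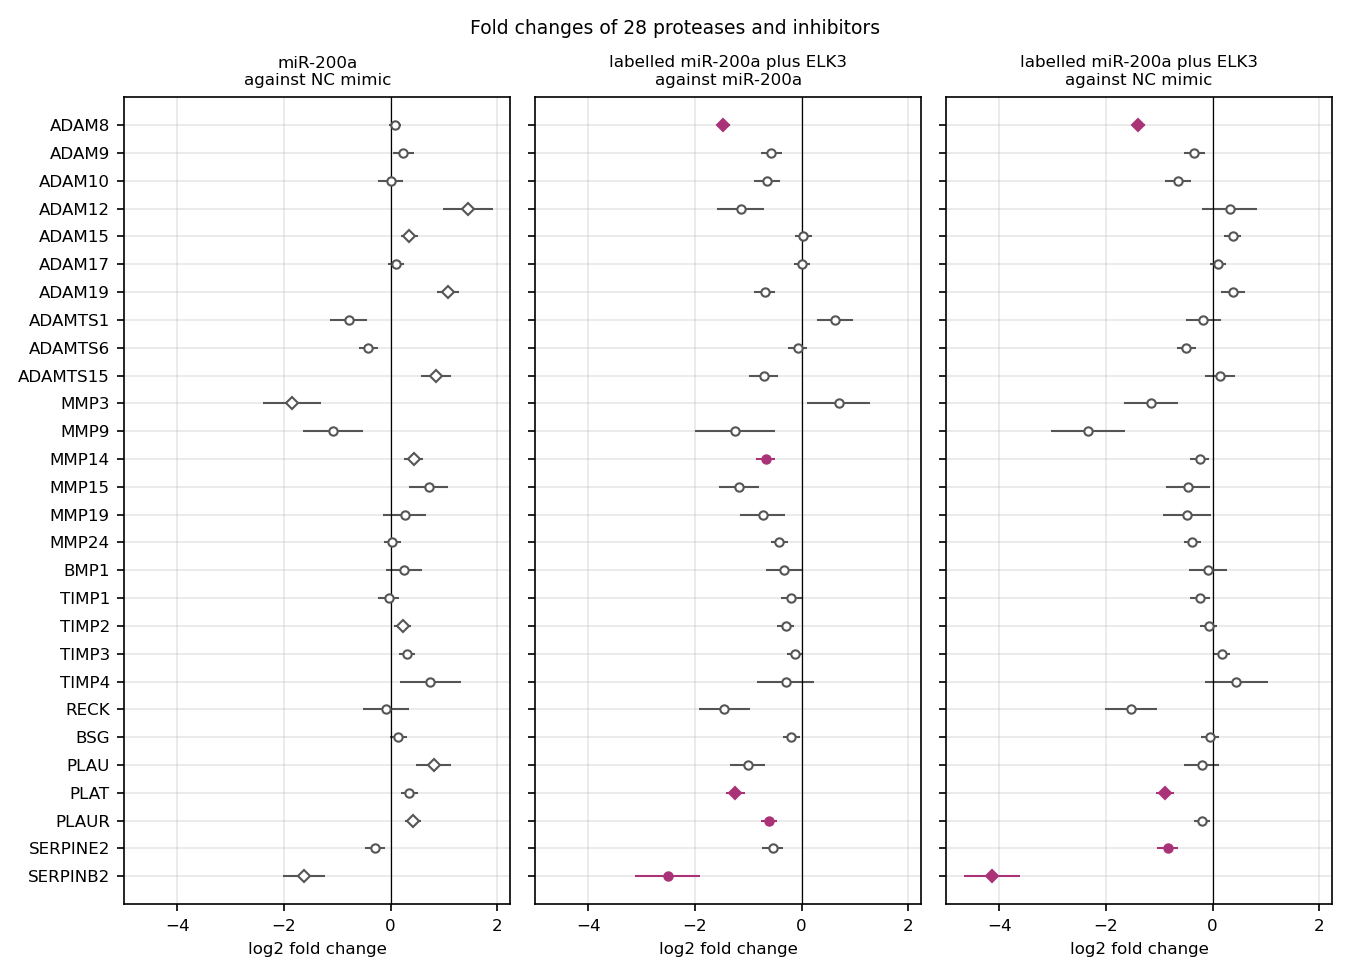
Log2 fold changes of the 28 tested genes in the 3 comparisons, from the model of all 6 libraries, with SEs as bars. Filled symbols passed an adjusted p of 0.05 in that model and diamonds passed in a model of the 2 compared groups alone; no symbol in the left panel is filled, and the filled ones in the other panels all lie below 0.

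Among the ADAM genes, ADAM8, a sheddase of adhesion molecules best known from leukocytes, showed the clearest change. It had 2059 and 1288 counts after the NC mimic, 2362 and 2160 after miR-200a, and 685 and 740 under the co-transfection label. These counts corresponded to a CPM of 438 ± 27.1, 464 ± 35.5 and 168 ± 8.25 (SD, n = 2 each). The libraries with the co-transfection label lay well below all other libraries, and the NC mimic and miR-200a libraries overlapped. The log2 fold change was -1.47 against miR-200a (SE 0.12, adjusted p = 0.000275) and -1.39 against the NC mimic (SE 0.12, adjusted p = 0.000253). Against the NC mimic, miR-200a had a log2 fold change of 0.08 (SE 0.12, adjusted p = 0.905). Across all alternative fits, each left-out library included, ADAM8 alone among the 28 kept both calls.

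The other ADAM genes with many reads did not pass in the model of all 6 libraries. ADAM10 had 721 and 527 counts after the NC mimic, 857 and 760 after miR-200a, and 586 and 312 under the co-transfection label. Both of the latter were below the other 4 libraries in CPM (138 and 73.2 against 154 to 177), but they also differed widely from each other. The log2 fold change was -0.65 in both comparisons with that group (SE 0.24, adjusted p = 0.0968 against miR-200a and 0.0991 against the NC mimic). It was -1.18 against miR-200a without replicate 1 of the group and -0.3 without replicate 2.

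ADAM17, the sheddase of TNF and of several EGF receptor ligands, had 353 and 300, 468 and 451, and 379 and 423 counts in the same order of groups. Its CPM stayed between 78.4 and 99.2 in all libraries, and the groups overlapped. Its log2 fold changes were 0.10, 0.00 and 0.10 (SE 0.15 in each comparison, adjusted p of 0.907, 0.998 and 0.689). The ratio of ADAM10 to ADAM17 counts was 2.04 and 1.76 after the NC mimic, 1.83 and 1.69 after miR-200a, and 1.55 and 0.738 under the co-transfection label.

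ADAM9 had 374 and 277 counts after the NC mimic, 476 and 518 after miR-200a, and 354 and 228 under the co-transfection label, with log2 fold changes of 0.24, -0.57 and -0.34 (SE 0.20 each, adjusted p of 0.785, 0.0808 and 0.283) in the order of the comparisons above. ADAM15, whose disintegrin domain binds integrins, had 630 and 340, 806 and 758, and 618 and 772 counts. Its CPM was 125 ± 20.7, 161 ± 9.1 and 164 ± 24.7 (SD, n = 2 each), lowest with the NC mimic. Its log2 fold change was 0.35 with miR-200a (SE 0.16, adjusted p = 0.541, and 0.0138 in the model of the 2 groups, with a range of 0.0128 to 1 over the alternatives). It was 0.03 for the libraries with the co-transfection label against miR-200a (SE 0.16, adjusted p = 0.928) and 0.38 against the NC mimic (SE 0.16, adjusted p = 0.14).

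The meltrins ADAM12 and ADAM19, which are known from muscle and heart development, had fewer reads and were higher with miR-200a. ADAM19 had 97 and 55 counts after the NC mimic, 227 and 179 after miR-200a, and 115 and 105 under the co-transfection label. The miR-200a libraries lay above all others, and the libraries of the third group lay between. With miR-200a the log2 fold change was 1.07 (SE 0.21, adjusted p = 0.0798, and 6.46e-05 in the model of the 2 groups, with a range up to 0.935 over the alternatives). For the libraries with the co-transfection label it was -0.69 against miR-200a (SE 0.20, adjusted p = 0.0521) and 0.38 against the NC mimic (SE 0.22, adjusted p = 0.268). ADAM12 had 18 and 4, 33 and 43, and 16 and 14 counts in the same order. Its miR-200a libraries were likewise the highest, with a log2 fold change of 1.45 (SE 0.46, adjusted p = 0.333, and 0.0285 in the model of the 2 groups, with a range up to 1). It was 2.55 without replicate 1 of the NC mimic and 0.96 without replicate 2. Its other log2 fold changes were -1.14 and 0.32 (SE 0.44 and 0.52, adjusted p of 0.112 and 0.717).

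Of the ADAMTS genes 3 of 7 were tested. ADAMTS15, a protease of the large proteoglycans aggrecan and versican, had 63 and 38 counts after the NC mimic, 108 and 125 after miR-200a, and 46 and 78 under the co-transfection label. The miR-200a libraries were the highest. With miR-200a the log2 fold change was 0.85 (SE 0.28, adjusted p = 0.349, and 0.00819 in the model of the 2 groups, with a range up to 1), followed by -0.71 (SE 0.27, adjusted p = 0.108) and 0.14 (SE 0.29, adjusted p = 0.785). ADAMTS1 and ADAMTS6 differed in the other direction with miR-200a, with log2 fold changes of -0.79 and -0.42 that did not pass in either model (adjusted p of 0.522 and 0.519).

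**Figure D3:**
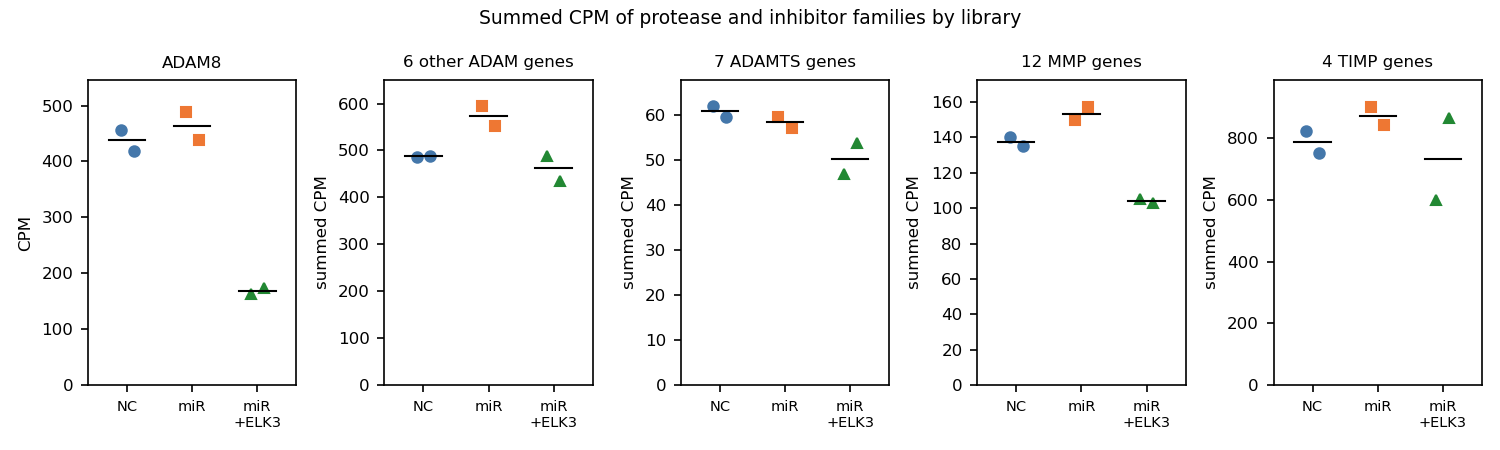
CPM of ADAM8, and summed CPM of the 6 other ADAM genes, the 7 ADAMTS, 12 MMP and 4 TIMP genes, in each library, with the group mean as a line; "miR +ELK3" marks the libraries with the co-transfection label. ADAM8 was at 489 and 439 CPM with miR-200a and at 162 and 174 CPM in that group. The 6 other ADAM genes also had lower sums there, 489 and 435 CPM against 594 and 551 for miR-200a. After the NC mimic, ADAM8 was at 457 and 419 CPM and the 6 others summed to 487 and 489.

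As a family, the 7 ADAM genes summed to 945 and 908 CPM after the NC mimic, 1080 and 990 after miR-200a, and 651 and 608 under the co-transfection label. Without ADAM8 the sums were 487 and 489, 594 and 551, and 489 and 435, so most of the difference between the libraries with the co-transfection label and the other groups lay in ADAM8, whereas most of the smaller difference between the NC mimic and miR-200a lay in the other 6 genes. These sums are a description with no test.

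The 12 MMP genes summed to 140 and 135 CPM after the NC mimic, 150 and 157 after miR-200a, and 105 and 103 under the co-transfection label. Most of these reads came from MMP14 and MMP24. MMP14, the membrane-anchored collagenase that activates pro-MMP2, had 269 and 136 counts after the NC mimic, 322 and 365 after miR-200a, and 193 and 184 under the co-transfection label. Its CPM of 70.4 ± 5.3 with miR-200a was above 52 ± 11 with the NC mimic and 44.4 ± 1.74 in the third group (SD, n = 2 each), and the miR-200a libraries did not overlap with either. MMP14 fell against miR-200a (log2 fold change -0.67, SE 0.18, adjusted p = 0.0361). The call was lost with the replicate number as a block (adjusted p = 0.0549), in the model of the 2 groups (0.0632), with limma (0.109) and without any one of the NC mimic or miR-200a libraries, with a range of 0.00104 to 0.27 over the alternatives. Its log2 fold change with miR-200a was 0.43 (SE 0.18, adjusted p = 0.504, and 0.0336 in the model of the 2 groups, with a range up to 1). Against the NC mimic, the libraries with the co-transfection label had a value of -0.24 (SE 0.18, adjusted p = 0.409).

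MMP3, stromelysin-1, had few counts: 39 and 16 after the NC mimic, 8 and 11 after miR-200a, and 20 and 7 under the co-transfection label. The NC mimic libraries were the highest in CPM, at 8.66 and 5.21, and the third group spanned 1.64 to 4.73. With miR-200a the log2 fold change was -1.85 (SE 0.54, adjusted p = 0.28, and 0.0085 in the model of the 2 groups, with a range up to 1). The other comparisons gave 0.70 and -1.15 (SE 0.59 and 0.51, adjusted p of 0.456 and 0.158). The gelatinase MMP9 was near the limit of detection, with 12 and 11, 7 and 7, and 4 and 1 counts. It entered the test through the NC mimic libraries alone, so its difference from them is given only as these counts. MMP15, MMP19, MMP24 and BMP1 did not pass in any comparison in either model, although MMP15 fell against miR-200a with no filter or with at least 10 counts in each library and MMP24 fell in both comparisons with the third group without its replicate 2; their log2 fold changes ran from 0.03 to 0.71 with miR-200a and from -1.17 to -0.33 between the libraries with the co-transfection label and miR-200a.

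Of the metalloprotease inhibitors, TIMP1 and TIMP2 had the most reads and TIMP4 and RECK few, and none passed in the model of all 6 libraries. TIMP2, which also takes part in the activation of pro-MMP2 by MMP14, had 2124 and 1325 counts after the NC mimic, 2656 and 2514 after miR-200a, and 1510 and 2157 under the co-transfection label. The miR-200a libraries were the highest in CPM, at 550 and 511, and the third group spanned 357 to 506. With miR-200a the log2 fold change was 0.23 (SE 0.16, adjusted p = 0.723, and 0.0124 in the model of the 2 groups, with a range of 0.0118 to 1). It was -0.30 against miR-200a (SE 0.16, adjusted p = 0.231) and -0.07 against the NC mimic (SE 0.16, adjusted p = 0.81) under the co-transfection label.

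TIMP1 had 1359 and 828, 1371 and 1336, and 788 and 1283 counts in the same order, or 302 and 269, 284 and 272, and 186 and 301 CPM. Only replicate 1 of the libraries with the co-transfection label was outside the range of the others. The log2 fold changes were -0.04, -0.19 and -0.23 (SE 0.19 each, adjusted p of 0.978, 0.54 and 0.453). TIMP3, the matrix-bound inhibitor of ADAM17, had a CPM of 49.1 ± 1.89, 60.2 ± 3.27 and 55.1 ± 0.701 (SD, n = 2 each), and TIMP4 had 4 to 19 counts. RECK, a membrane-anchored inhibitor of several MMPs, had 50 and 33 counts after the NC mimic, 45 and 56 after miR-200a, and 26 and 6 under the co-transfection label. Its log2 fold changes for the last group did not pass, at -1.45 against miR-200a (SE 0.48, adjusted p = 0.0739) and -1.53 against the NC mimic (SE 0.49, adjusted p = 0.0665). RECK did pass with no filter in both comparisons, and with DESeq2 against the NC mimic.

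BSG, a surface glycoprotein also called CD147 that induces MMPs in neighbouring cells, had 370 and 230, 388 and 457, and 358 and 286 counts. The groups overlapped, with log2 fold changes of 0.14, -0.19 and -0.05 (SE 0.16, 0.16 and 0.17, adjusted p of 0.869, 0.459 and 0.86). Within a library, the ratio of ADAM8 to TIMP1 counts was 1.52 and 1.56 after the NC mimic, 1.72 and 1.62 after miR-200a, and 0.869 and 0.577 under the co-transfection label. The ratio of MMP14 to TIMP2 ran from 0.0853 to 0.145 and overlapped between the groups. These ratios and those below do not depend on the scaling between libraries, and the pairs were chosen with the values known.

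In the plasminogen activator system, PLAU, PLAT and the receptor PLAUR had higher values with miR-200a, and the inhibitors SERPINE2 and SERPINB2 lower ones. Of these, PLAU, PLAUR and SERPINB2 passed in the model of these groups alone. Under the co-transfection label all of them had lower values than with miR-200a, and PLAT, PLAUR and SERPINB2 fell. Both comparisons use the same miR-200a libraries. The inhibitors SERPINF2 and SERPINI1, outside the chosen genes, had few counts. Their log2 fold changes were 0.87 and 1.19 with miR-200a (SE 0.53 and 0.58, adjusted p of 0.694 and 0.59). Between the libraries with the co-transfection label and miR-200a they were 0.66 and -0.14 (SE 0.44 and 0.49, adjusted p of 0.344 and 0.879). PLAU, urokinase, had 2945 and 2019 counts after the NC mimic, 5450 and 5757 after miR-200a, and 3539 and 1298 under the co-transfection label. In CPM, the NC mimic libraries were at 654 and 657, the miR-200a libraries at 1130 and 1170, and the third group at 836 and 304, so that 1 of its libraries lay above the NC mimic and the other below. The log2 fold change with miR-200a was 0.81 (SE 0.33, adjusted p = 0.498) in the model of all 6 libraries. In the model of these 2 groups it was 0.83 (adjusted p = 1.43e-12), and over the alternatives the adjusted p ranged from 1.1e-12 to 1. Between the libraries with the co-transfection label and miR-200a it was -1.01 (SE 0.33, adjusted p = 0.0715, and 0.0492 with the replicate number as a block, with a range of 5.71e-20 to 0.28). This value was -1.91 without replicate 1 of the third group and -0.5 without replicate 2. Against the NC mimic it was -0.20 (SE 0.33, adjusted p = 0.718), and 0.32 without replicate 2 of the third group (adjusted p = 0.000643) or -1.09 without replicate 1 (adjusted p = 1.55e-13), with a range up to 0.858. The direction of that comparison thus rested on 1 library.

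**Figure D4:**
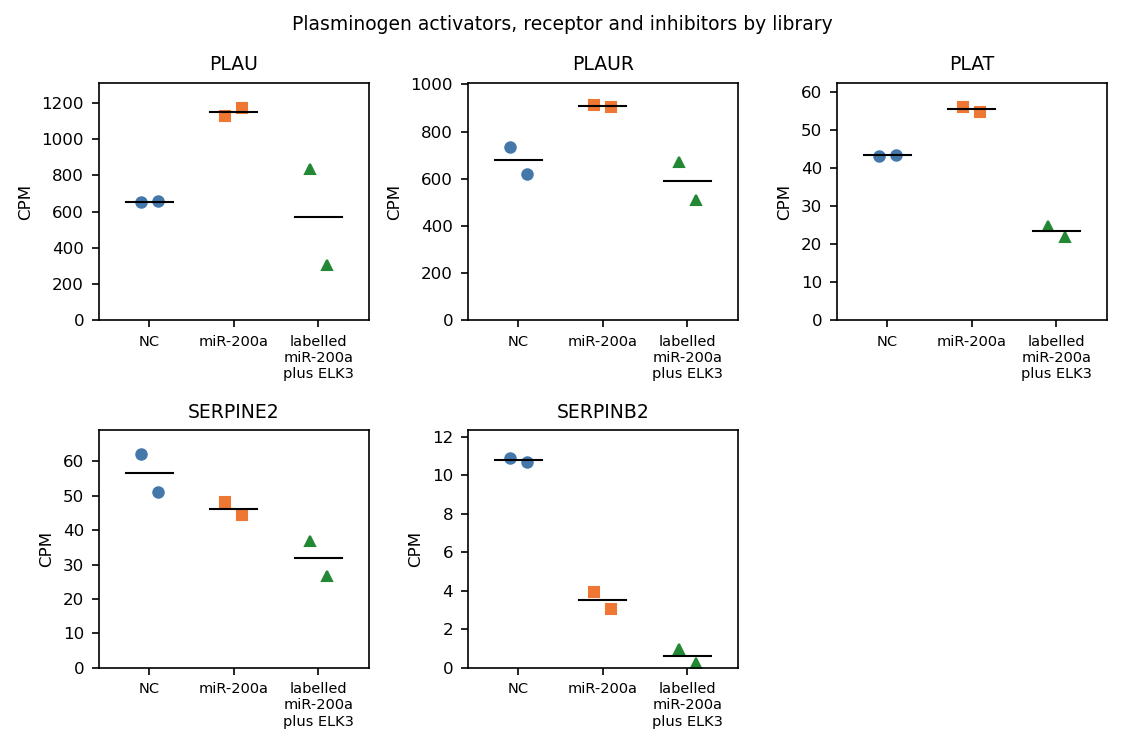
CPM of 5 plasminogen system genes in each library, with the group mean as a line and axes that start at 0. PLAU, PLAUR and PLAT were highest in both miR-200a libraries, and SERPINE2 and SERPINB2 were lowest under the co-transfection label.

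PLAUR, the urokinase receptor, had 3305 and 1908 counts after the NC mimic, 4399 and 4452 after miR-200a, and 2832 and 2169 under the co-transfection label. Its CPM was 678 ± 80.1, 908 ± 4.39 and 589 ± 114 (SD, n = 2 each). The miR-200a libraries were above all others, and the NC mimic and the third group overlapped. PLAUR fell under the co-transfection label against miR-200a (log2 fold change -0.62, SE 0.15, adjusted p = 0.0231), a call that was lost in the model of the 2 groups (adjusted p = 0.0593), with limma (0.135) and without any one of the NC mimic or miR-200a libraries (with a range of 3.8e-10 to 0.191 over the alternatives). With miR-200a against the NC mimic its log2 fold change was 0.42 (SE 0.15, adjusted p = 0.395, and 1.01e-05 in the model of the 2 groups, with a range up to 1), and in the third comparison it was -0.20 (SE 0.15, adjusted p = 0.379).

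PLAT, tissue plasminogen activator, had 195 and 134 counts after the NC mimic, 271 and 270 after miR-200a, and 105 and 94 under the co-transfection label. Its CPM was 43.5 ± 0.201, 55.5 ± 0.884 and 23.4 ± 1.96 (SD, n = 2 each), with no overlap between any of the groups. PLAT fell against miR-200a (log2 fold change -1.24, SE 0.17, adjusted p = 0.00293) and against the NC mimic (-0.89, SE 0.17, adjusted p = 0.0111). The first call was lost without either miR-200a library (adjusted p up to 0.0732) and the second without either NC mimic library (up to 0.115). Its log2 fold change with miR-200a was 0.35 (SE 0.16, adjusted p = 0.543).

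SERPINB2, plasminogen activator inhibitor 2, had the lowest counts of the genes that changed. It had 49 and 33 counts after the NC mimic, 19 and 15 after miR-200a, and 4 and 1 under the co-transfection label. The 3 groups did not overlap, at 10.8 ± 0.104, 3.49 ± 0.627 and 0.59 ± 0.503 CPM (SD, n = 2 each), and the last value lay at the limit of detection. Summed over the libraries of a group, the NC mimic exceeded the libraries with the co-transfection label by a ratio of 18.4 (exact 95% interval for counting error 7.57 to 58.2), and miR-200a exceeded them by 5.92 (2.31 to 19.4). SERPINB2 fell against the NC mimic (fitted log2 fold change -4.13, SE 0.53, adjusted p = 0.00179), and this held in every alternative fit that tested it. It also fell against miR-200a (-2.51, SE 0.61, adjusted p = 0.0254), a call that was lost in the model of the 2 groups (0.069), with limma (0.0668), without replicate 2 of the third group (0.0523) and without any one of the NC mimic or miR-200a libraries, with a range of 0.00144 to 0.171. The value was -3.74 without replicate 1 of the third group and -1.89 without replicate 2. With miR-200a the value was -1.62 (SE 0.39, adjusted p = 0.155, and 0.0026 in the model of the 2 groups, with a range up to 1).

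SERPINE2, protease nexin-1, which inhibits thrombin, urokinase and plasmin, had 280 and 157 counts after the NC mimic, 232 and 218 after miR-200a, and 156 and 114 under the co-transfection label. In CPM the groups did not overlap, at 56.6 ± 7.86, 46.2 ± 2.65 and 31.8 ± 7.16 (SD, n = 2 each). SERPINE2 fell against the NC mimic (log2 fold change -0.84, SE 0.20, adjusted p = 0.0241), but not without any one of the NC mimic or miR-200a libraries, not with limma (adjusted p = 0.0763) and not in the model of the 2 groups (0.0654, with a range of 2.26e-05 to 0.205). The other values were -0.30 with miR-200a (SE 0.19, adjusted p = 0.714) and -0.54 between the libraries with the co-transfection label and miR-200a (SE 0.20, adjusted p = 0.0978).

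Within a library, the ratio of PLAU to SERPINE2 counts was 10.5 and 12.9 after the NC mimic, 23.5 and 26.4 after miR-200a, and 22.7 and 11.4 under the co-transfection label, so the last group spanned most of the range of the other groups. The ratio of PLAU to SERPINB2 counts was 60.1 and 61.2, 287 and 384, and 885 and 1300 in the same order of groups, and the last rests on 4 and 1 SERPINB2 counts.

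The promoters of SERPINB2 and PLAUR are shown because these tested genes carry the AP-1 motif. The motif TGANTCA, searched on both strands in the RefSeq promoter windows of build GRCh38.p14 (300 bases around the start), was found in 2 of the 22 tested proteases and inhibitors with an entry (9.09%), in 5.29% of the promoters of all tested genes and in 7.71% of all promoters. The windows are given in the sense of the gene with the motif in capitals.
SERPINB2 (chr18:63887603-63887609, plus strand, 102 bases before the start): taaaatgtTGAATCActcaaagg
PLAUR (chr19:43670349-43670355, minus strand, 186 bases before the start): caactccaTGAGTCAgggccgag
The untested MMP7 and MMP10 held the motif as well, which made 4 of 28 promoters (14.3%). The ETS core GGAA, the motif of the ELK3 family, was in all 28 promoters and in 95.5% of all promoters, so it did not separate the genes. A motif shows only that these letters are present.

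The libraries with the co-transfection label differed from each other by more than 1.5-fold in CPM for 11 of the 28 genes: ADAM9, ADAM10, ADAMTS15, MMP3, MMP9, BMP1, TIMP1, TIMP4, RECK, PLAU and SERPINB2. In the NC mimic group this held for 3 genes, ADAM12, MMP3 and TIMP4, and in the miR-200a group for 0. The same count over all tested genes was not made. Over all tested genes the median absolute log2 difference between replicates was 0.31 in the third group. It was 0.18 in the NC mimic group and 0.14 in the miR-200a group, so the wider spread was not particular to these 28 genes. Replicate 2 of the third group was the lower one for ADAM9, ADAM10, MMP3, MMP9, RECK, PLAU and SERPINB2 and the higher one for ADAMTS15, BMP1, TIMP1 and TIMP4. VIM moved with the former, at 1850 CPM in replicate 1 and 954 in replicate 2. Its part in these results was not tested.

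Reads that lie in the 3′UTR can come from another gene on the opposite strand where exons overlap, and it is not given in the sources used here whether the counting used strand. In GENCODE, exons of opposite-strand genes overlap the 3′UTR of ADAM10 (AC018904.1), ADAM17 (IAH1), MMP24 (MMP24OS), TIMP2 (AC022966.1) and PLAU (C10orf55), and the values of these 5 genes are uncertain to that extent.

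Other genes of the pathway were counted from lists, to be read beside the shares of all genes given above. Of the other ADAM, ADAMTS and MMP genes only 7 of 36 were tested, and 0 passed in any comparison by edgeR, DESeq2 or limma, with 1 at an unadjusted p under 0.05, lower with miR-200a. Of 11 other plasminogen system genes 8 were tested, and 2 fell in both comparisons with the libraries with the co-transfection label: LRP1, the endocytic receptor that clears activator and inhibitor complexes, and IGF2R, which binds PLAUR. LRP1 had a log2 fold change of -1.40 against miR-200a (SE 0.24, adjusted p = 0.00782) and IGF2R of -0.87 (SE 0.24, adjusted p = 0.0388). The IGF2R call was lost in the model of the 2 groups (adjusted p = 0.0959). With miR-200a 0 of the 8 passed by edgeR in the model of all 6 libraries, by DESeq2 or by limma, and 0 had an unadjusted p under 0.05, but in the model of the 2 groups 1, S100A10, was higher (adjusted p = 0.00276).

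Of the proprotein convertases, which activate many metalloproteases, 5 of 9 were tested, and 1, PCSK4, fell against miR-200a at 22 and 11 against 1 and 3 counts (log2 fold change -2.77, SE 0.73, adjusted p = 0.0343), but not by DESeq2 or limma or in the model of the 2 groups (0.0703). In the other comparisons 0 passed by edgeR, DESeq2 or limma, with 1 lower against the NC mimic at an unadjusted p under 0.05. Of the ADAM10 and ADAM17 partners 8 of 9 were tested, and 1, FRMD8, which stabilises the ADAM17 complex at the cell surface, rose under the co-transfection label. FRMD8 was at 47.5 and 49.1 CPM after the NC mimic, 70.4 and 64.4 after miR-200a, and 99.3 and 125 in that group, with no overlap (log2 fold change 0.73 against miR-200a, SE 0.16, adjusted p = 0.0172 and 0.0552 in the model of the 2 groups, and 1.21 against the NC mimic, SE 0.16, adjusted p = 0.00231). With miR-200a 0 of the 8 partners passed in the model of all 6 libraries, by DESeq2 or by limma, with 3 higher at an unadjusted p under 0.05, and 3 passed as higher in the model of the 2 groups.

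Of the cathepsins and cystatins, lysosomal proteases and their inhibitors, 16 of 20 were tested. With miR-200a 0 passed by edgeR in the model of all 6 libraries, by DESeq2 or by limma, 3 were higher at an unadjusted p under 0.05, and 2, CST1 and CTSZ, passed as higher in the model of the 2 groups. Between the libraries with the co-transfection label and miR-200a, 5 fell and 1, CTSC, rose, and against the NC mimic 3 fell and 1 rose. CTSB, cathepsin B, was at 341 and 330 CPM with miR-200a and at 185 and 219 in the third group (log2 fold change -0.73, SE 0.13, adjusted p = 0.00782). CTSF had a log2 fold change of -2.02 (SE 0.36, adjusted p = 0.00836), and the salivary cystatin CST4 of -2.49 at 26 and 27 against 4 and 4 counts (SE 0.48, adjusted p = 0.0118).

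Of the membrane proteins that ADAMs shed, 24 of 25 were tested. With miR-200a 1 rose, IL6R, from 28 and 22 to 117 and 97 counts (log2 fold change 1.72, SE 0.26, adjusted p = 0.0342, and 0.0815 with the replicate number as a block). In the model of the 2 groups 10 passed, 7 higher and 3 lower. Between the libraries with the co-transfection label and miR-200a 4 fell, and against the NC mimic 4 fell and 2 rose. The EGF receptor ligand AREG fell from 189 and 192 CPM with miR-200a to 87.4 and 74.1 (log2 fold change -1.24, SE 0.14, adjusted p = 0.00143). CD44, the hyaluronan receptor, had a log2 fold change of -0.61 in that comparison (SE 0.13, adjusted p = 0.0151, and 0.0528 in the model of the 2 groups).

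Of the matrix substrates and their cross-linking enzymes 16 of 26 were tested. With miR-200a 0 passed by edgeR in the model of all 6 libraries or by limma and 3 by DESeq2, and 5 had an unadjusted p under 0.05, 3 higher and 2 lower. In the model of the 2 groups 6 passed, 4 higher and 2 lower. Between the libraries with the co-transfection label and miR-200a 8 fell, and against the NC mimic 7 fell. FN1, fibronectin, was at 490 and 477 CPM after the NC mimic, 320 and 322 after miR-200a, and 119 and 96.1 in the third group, with no overlap. Its log2 fold change was -1.58 against miR-200a (SE 0.13, adjusted p = 0.000288) and -2.17 against the NC mimic (SE 0.14, adjusted p = 4.33e-05). The lysyl oxidases LOX and LOXL2 had log2 fold changes of -1.66 and -0.53 against miR-200a (SE 0.23 and 0.12, adjusted p of 0.00348 and 0.0188), and in the model of the 2 groups the LOXL2 call was lost (0.0634). FN1, LOX and LOXL2 thus fell in the same comparison as ADAM8, PLAT, PLAUR and MMP14.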

How the data were processed

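The authors deposited raw read counts per gene symbol for each library, made from QuantSeq 3′ libraries. The submitters' processing notes list Bowtie2, edgeR and hg19 with no role or version; the counting program and annotation are not given in the sources used here. The deposited counts were not normalized. Each file had 25737 lines, and lines that share 1 of 286 symbols were summed. Groups came from the sample labels. Counts were tested in R 4.3.3 with edgeR 4.0.16 (TMM, filterByExpr with a minimum count of 10, quasi-likelihood test of all 6 libraries in 1 model, Benjamini-Hochberg adjustment over all 12650 tested genes, threshold 0.05), after a test on simulated data. CPM is counts over the library total times its TMM factor. Floors and intervals cover counting error only. Alternatives were DESeq2 1.42.0, upper-quartile normalization, other filters, only the 2 compared groups, a replicate block, limma 3.58.1 on quantile-normalized log2(count + 1), the study's criteria (unadjusted p, 1.5-fold change, mean log2 normalized count over 3), and leaving out each library. The study's criteria were applied here to unadjusted p-values of the edgeR model of all 6 libraries. The paper used ExDEGA, so its own selection may differ. Whether libraries of the same replicate number were prepared together is not given in the sources used here. Genes given in full passed in the model of 6 libraries or of the 2 compared groups, or were among the 10 highest in mean CPM. Of each other list, up to 3 genes with the smallest adjusted p were named. Some genes of these lists are not reported here. The genes and lists were chosen with earlier results of these data known. Gene and 3′UTR positions are from GENCODE release 29 on GRCh38, promoters and miR-200a from RefSeq (GRCh38.p14); the files hold no coordinates. ADAMTS6 had no usable 3′UTR and 10 of the 38 genes no promoter entry.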

Additional observations from a re-analysis of the deposited data

How the results depend on the processing

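The number of the 28 genes that passed depended on the test and on the libraries. For miR-200a against the NC mimic it was 0, and became 1 with DESeq2 (0.696% of all genes), 4 with no filter (1.23%), 10 in the model of the 2 groups, 10 by unadjusted p, 7 by the study's criteria (4.57%), and 0 to 10 on leaving out 1 library, 10 without either library with the co-transfection label. For those libraries against miR-200a it was 5, and became 12 with no filter (13.4%), 2 in the model of the 2 groups, 2 with limma (0.846%), 15 by unadjusted p (30.6%), 11 by the study's criteria (19.1%), and 1 to 12 on leaving out 1 library: 1 without either miR-200a library (0.387% and 0.308% of all genes), 2 without either NC mimic library (4.47% and 4.53%), and 12 and 11 without replicate 1 or 2 of the third group (37.4% and 22.5%). Against the NC mimic it was 4, and became 7 with no filter (13.5%), 11 by unadjusted p (30.6%), 7 by the study's criteria (19.4%), and 2 to 12 on leaving out 1 library: 2 without either NC mimic library (0.711% and 0.719%), and 12 and 8 without replicate 1 or 2 of the third group (37.3% and 22.7%), so the count of the 28 rose with that over all genes. The cause was not tested. MMP9, which met the filter in the NC mimic libraries alone, is counted against the NC mimic with no filter and by unadjusted p. It is also counted there without replicate 1 of the third group. With the replicate block the counts were 0, 5 and 4 (0.103%, 9.15% and 9.25% of all genes). Between groups, the replicate differences had correlations over genes of -0.002, -0.037 and -0.116. With 1 difference per group these cannot show whether libraries of the same number were prepared together. A block with the numbers of the third group crossed, added after the data were seen, gave 0, 6 and 5 (0.174%, 13% and 13.1%).

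Values that changed sign, or reached 0 after rounding, were close to 0 or rested on 1 library. In the first comparison ADAM10 was -0.01 with the replicate block. In the second, ADAM17 was -0.02 with DESeq2, -0.07 with upper-quartile normalization, -0.01 with no filter, -0.02 where every library needed 10 counts, 0 with the replicate block and -0.07 with limma, and ADAM15 was -0.04 with upper-quartile normalization and -0.07 with limma. On leaving out 1 library, the log2 fold change ranged, in the first comparison, from -0.1 to 0.1 for ADAM10, -0.05 to 0.27 for ADAM17 and -0.12 to 0.04 for TIMP1; in the second, from -0.18 to 0.18 for ADAM15, -0.12 to 0.08 for ADAM17, -0.24 to 1.22 for MMP3 and -0.62 to 0.12 for TIMP1; and in the third, from -0.18 to 1.42 for ADAM12, -0.05 to 0.27 for ADAM17, -0.32 to 0.48 for ADAMTS15, -0.43 to 0 for MMP14, -0.65 to 0.09 for TIMP1, -0.37 to 0.18 for TIMP2, -0.21 to 0.07 for BSG and -1.09 to 0.32 for PLAU. A group left with 1 library was assumed to vary like the others. Scaling by raw library totals moved 5 of the family sums by more than their standard deviation.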
